A study of Mus musculus with 12 samples.

Results

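Vascular endothelial growth factors (VEGFs) and their receptors were followed in cultured fibroblasts of mouse fat through 9 genes. They were the ligands Vegfa, Vegfb and Vegfc, the receptors Flt1 and Kdr, the co-receptors Nrp1 and Nrp2, the TGF-beta co-receptor endoglin (Eng) and the secreted protein Egfl7. All probe sets that the platform annotation assigned to these symbols were taken, 18 of the 22626 on the array, and the brightest probe set stood for its gene, which made the members 9 of 12393 genes. The cells came from Zfp423-GFP transgenic male mice 6 to 8 weeks old, on a mixed FVB and C57BL/6 background, in which a green fluorescent protein (GFP) reporter is tied to Zfp423, a zinc finger regulator of preadipocytes. Stromal vascular cells of inguinal (subcutaneous) or epididymal (visceral) fat were cultured, sorted into GFP+ and GFP- fibroblasts, put back into culture and harvested while still dividing. Each of the 2 fractions from each of the 2 depots was hybridised to 3 arrays, which made 4 groups. All groups carried the transgene and none was treated. The labels do not say whether the 3 arrays of a group came from separate mice or cultures, so the p-values measure the spread between these arrays, which may be technical.

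VEGF-A, made by many cell types and raised when oxygen is low, binds the receptor tyrosine kinases FLT1 and KDR on endothelial cells. KDR carries most of the growth and permeability signal, while FLT1 binds the ligand tightly and signals weakly, so that it can act as a decoy. Neuropilins bind both VEGFs and class 3 semaphorins, VEGF-B acts through FLT1, and VEGF-C acts chiefly on lymphatic vessels. Endoglin helps TGF-beta and BMP ligands to signal and is used both as an endothelial marker and as a marker of mesenchymal stromal cells.

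Medians of the 12 arrays lay between 347 and 371 signal units. A probe set was counted as above background on an array when its signal exceeded the 95th percentile of 72 probe sets for olfactory, vomeronasal and taste receptors, a limit of 54.6 to 86.1 depending on the array, and in a group when it did so on all 3 arrays. By this rule 73.2% of genes were above background in at least 1 group and 64.6% in all 4. The sort was visible in Zfp423 itself, whose mean signal was 124 ± 22.9 in inguinal GFP+ against 57.4 ± 13.8 in inguinal GFP- cells, and 242 ± 35.1 against 29.4 ± 3.8 in epididymal cells (SD, n = 3 in each group). Differences below are on the scale log2(signal + 16), which understates changes of dim genes, with the standard error (SE) and the adjusted p of limma. A gene was called when its adjusted p over all 12393 genes was under 0.05. Bulk RNA of this kind cannot tell fewer cells of a type from less RNA per cell.

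All 9 genes were above background in at least 1 group, Egfl7 only through probe sets with the ending _x_at. Of the 18 probe sets, 13 were above background in all 4 groups, 2 in none (both of Egfl7) and 3 in some groups (2 of Egfl7 and 1 of Eng). Probe sets other than the brightest were tested in a fit of every probe set, which called 10.5% of them in the inguinal and 38.1% in the epididymal GFP contrast, 30.5% in the difference of these contrasts, and 47.1% and 49.7% between depots in GFP+ and GFP- cells. The values by array show the main pattern: in epididymal GFP- cells Vegfa, Nrp1, Nrp2 and Eng were at their lowest and Kdr was at its highest.

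**Figure D1:**
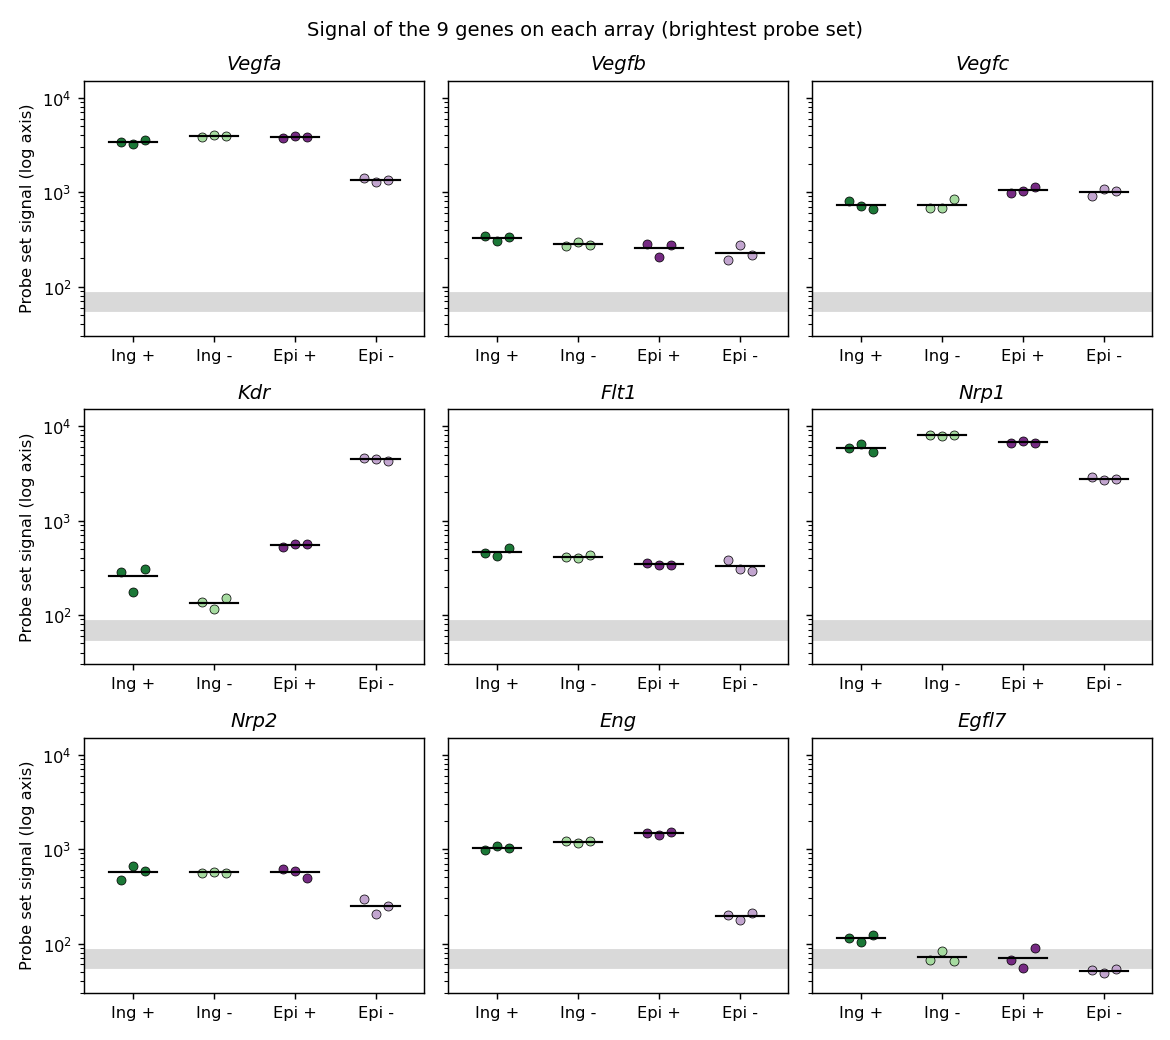
Signal of the brightest probe set of each of the 9 genes on each array (points, log axis) with the group mean (line), for inguinal (Ing) and epididymal (Epi) GFP+ and GFP- cells. The grey band spans the background limits of the arrays, 54.6 to 86.1; Kdr lies at 4303 to 4615 in epididymal GFP- cells and at 115 to 151 in inguinal GFP- cells.

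The promoters of Eng, Kdr and Vegfa are printed because these 3 genes had the largest differences between epididymal GFP+ and GFP- cells. Each line holds the 250 bases before the transcription start from RefSeq on GRCm38.p6, read 5′ to 3′ along the gene, with the ETS core GGAA in capitals on either strand (GGAA or TTCC), a motif bound by a factor family active in endothelial genes. Eng lies at chr2:32646345-32646594 on the plus strand, Kdr at chr5:75978456-75978705 on the minus strand and the more distal of the Vegfa starts at chr17:46032378-46032627 on the minus strand.
Eng: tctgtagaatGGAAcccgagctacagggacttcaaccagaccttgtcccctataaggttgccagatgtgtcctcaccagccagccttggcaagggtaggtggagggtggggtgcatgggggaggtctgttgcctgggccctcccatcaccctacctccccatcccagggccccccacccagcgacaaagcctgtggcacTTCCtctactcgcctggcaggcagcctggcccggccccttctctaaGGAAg
Kdr: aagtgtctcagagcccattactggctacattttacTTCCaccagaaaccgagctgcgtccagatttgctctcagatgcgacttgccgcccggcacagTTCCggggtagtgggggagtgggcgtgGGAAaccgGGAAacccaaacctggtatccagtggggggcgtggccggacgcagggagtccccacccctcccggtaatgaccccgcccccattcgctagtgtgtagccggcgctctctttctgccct
Vegfa: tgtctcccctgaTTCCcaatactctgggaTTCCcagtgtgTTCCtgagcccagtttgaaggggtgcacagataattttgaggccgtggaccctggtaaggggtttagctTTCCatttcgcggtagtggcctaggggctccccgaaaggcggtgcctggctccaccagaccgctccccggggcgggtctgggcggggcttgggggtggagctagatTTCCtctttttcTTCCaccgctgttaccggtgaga

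The 9 genes had 12 promoters in the table of 32851. GGAA was found in all 12, but also in 93.4% of all promoters of this length, so its presence does not set these genes apart. The Eng promoter held 3 copies, the Kdr promoter 4 and the printed Vegfa promoter 6, while the other Vegfa promoter held 2. The GC box GGGCGG, searched on both strands, was in 9 of the 12 and in 32.7% of all promoters; Kdr and the printed Vegfa promoter had 2 each and Eng had 0. The hypoxia response core was searched as ACGTG, in 1 of the 12 and 16.6% of all, and as GCGTG, in 6 of the 12 and 28.2% of all. The Vegfa promoter that is not printed held the ACGTG and also a GCGTG, and the printed one held neither. The TATA box TATAAA was in 1 of the 12, that of Flt1, and in 12.4% of all. Members' promoters were rich in G and C, at 58% to 76.4% against a median of 52.4% over all promoters. These matches are descriptions of the letters and not evidence of binding.

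In inguinal cells the differences between GFP+ and GFP- were small. Kdr and Egfl7 were higher in GFP+ cells and Vegfa, Nrp1 and Eng were lower, while Vegfb, Vegfc, Flt1 and Nrp2 were not called. These 5 calls stand beside 12.6% of all genes called in this comparison (5.26% higher and 7.29% lower), and 6 of the 9 members had GFP+ and GFP- arrays that did not overlap, beside 28.7% of all genes. With the 30% of genes of lowest mean left out as weakly detected, Egfl7 among them, 18.4% of genes were called. The median difference over the members was 0.01, against -0.01 over all genes. Of the 5 calls, those of Eng and Egfl7 were close to the threshold.

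In epididymal cells the differences were large. Vegfa, Nrp1, Nrp2 and Eng rose in GFP+ cells and Kdr fell, and the other 4 genes were not called. The 5 calls stand beside 41.9% of all genes called (21.5% higher and 20.3% lower), and 6 of the 9 members did not overlap, beside 50% of all genes. Leaving out weakly detected genes raised the share of genes called to 58.5%. The members' median difference was 0.35 against 0.01 over all genes, and the median size of their differences 1.13 against 0.20.

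**Figure D2:**
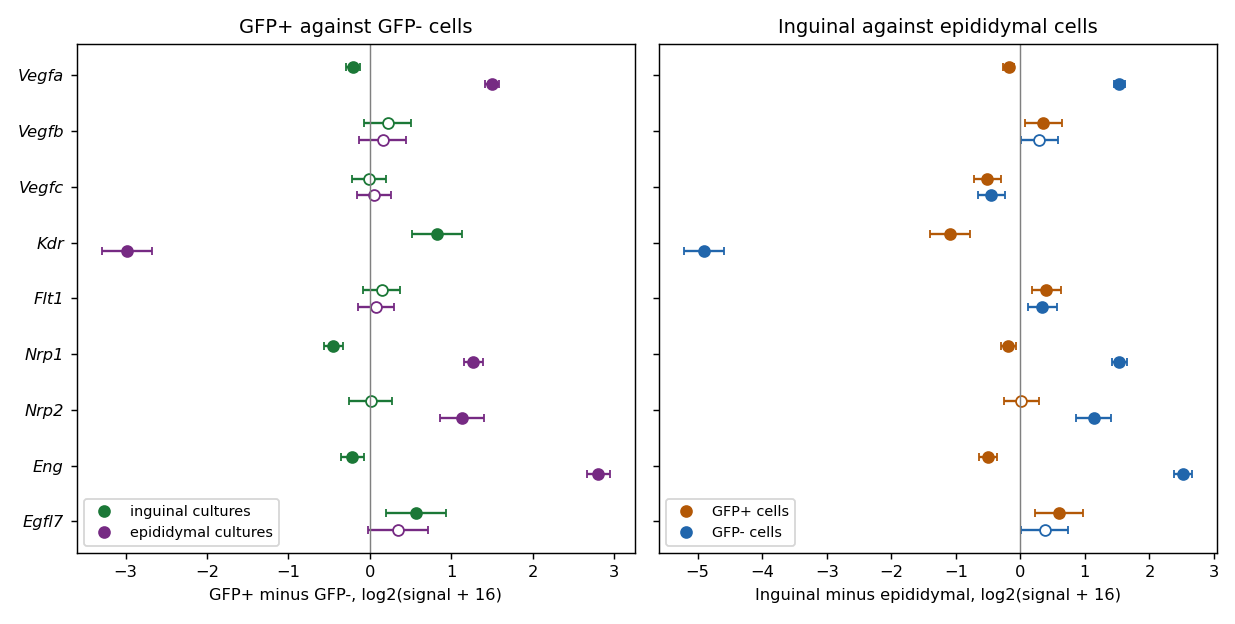
Differences in log2(signal + 16) with 95% intervals for the 9 genes, GFP+ minus GFP- in each depot (left) and inguinal minus epididymal in each fraction (right). Filled points passed an adjusted p of 0.05; Kdr and Eng lie farthest from 0 in epididymal cells, at -2.98 and 2.81.

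Vegfa, the main ligand of the family, was above background on every array with both of its probe sets. Its signals were 3382, 3260 and 3554 in inguinal GFP+ cells and 3840, 3999 and 3899 in inguinal GFP- cells. They were 3736, 3948 and 3869 in epididymal GFP+ cells and 1402, 1288 and 1344 in epididymal GFP- cells. Only the last group stood far apart; inguinal GFP- and epididymal GFP+ arrays overlapped, and inguinal GFP+ arrays lay just under both. The GFP contrast was -0.20 (SE 0.04, limma adjusted p = 0.00271) in inguinal and 1.51 (SE 0.04, limma adjusted p = 4.46e-14) in epididymal cells. The second probe set, 1451959_a_at, showed the epididymal rise (1.02, limma adjusted p = 3.1e-09) but not the inguinal decrease (-0.01, limma adjusted p = 0.945), and with the mean of both probe sets the inguinal value was -0.11 (limma adjusted p = 0.14) and no longer called.

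Vegfb, whose product binds FLT1, varied little. Its signals were 347, 306 and 333 in inguinal GFP+ cells, 267, 295 and 276 in inguinal GFP- cells, 285, 208 and 273 in epididymal GFP+ cells and 189, 277 and 216 in epididymal GFP- cells. The GFP contrast was 0.22 in inguinal cells (95% interval -0.07 to 0.51) and 0.16 in epididymal cells (-0.13 to 0.45), neither called by limma. Its single call was a higher level in inguinal than epididymal GFP+ cells (0.36, limma adjusted p = 0.0404). This call was lost in 7 of 24 alternatives. Without epididymal GFP+ replicate 2, the low array, the difference was 0.22 (limma adjusted p = 0.206). Without inguinal GFP+ replicate 1 it was 0.32 (limma adjusted p = 0.117), and when inguinal GFP+ replicate 3 was left out it was 0.35 (limma adjusted p = 0.0855). With inguinal GFP- replicate 3 left out it stayed at 0.36 (limma adjusted p = 0.0512).

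Vegfc, the lymphatic growth factor, differed between depots, with no call between the fractions. In inguinal cells its signals were 806, 721 and 657 in GFP+ and 671, 682 and 850 in GFP- cells. In epididymal cells they were 974, 1033 and 1124 in GFP+ and 901, 1081 and 1039 in GFP- cells. Every epididymal array was above every inguinal array, and within a depot the fractions overlapped. The inguinal minus epididymal difference was -0.51 in GFP+ cells (SE 0.10, limma adjusted p = 0.000378) and -0.45 in GFP- cells (SE 0.10, limma adjusted p = 0.00093). The GFP contrast had a 95% interval of -0.22 to 0.20 in inguinal and -0.16 to 0.26 in epididymal cells.

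Kdr, the main signalling receptor of VEGF-A, had the widest range of the 9 genes. Its signals were 285, 177 and 309 in inguinal GFP+ cells, 139, 115 and 151 in inguinal GFP- cells, 525, 560 and 571 in epididymal GFP+ cells and 4615, 4490 and 4303 in epididymal GFP- cells. No groups overlapped, and all 12 arrays were above background. The GFP contrast was 0.83 (SE 0.14, limma adjusted p = 0.000946) in inguinal and -2.98 (SE 0.14, limma adjusted p = 6.24e-11) in epididymal cells, opposite in sign. In GFP- cells the mean signal was 33.1 times higher in the epididymal than the inguinal depot (-4.90 as inguinal minus epididymal, limma adjusted p = 7.65e-14), and in GFP+ cells 2.15 times higher (-1.09, limma adjusted p = 1.16e-05). The summed signal of 15 mesothelial markers was highest in the same group, at 51614 to 54637 in epididymal GFP- cells against 10400.3 to 10773 in epididymal GFP+ and 2535 to 2889 in inguinal cells. Of these markers 13 were lower in epididymal GFP+ than GFP- cells and 0 higher, beside 20.3% and 21.5% of all genes. In epididymal GFP- cells 14 of the 15 markers were above background. Their part in the Kdr and Eng results was not tested.

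Flt1, the high-affinity receptor, gave results that depended on the probe set. Probe set 1419300_at had signals of 449, 419 and 517 in inguinal GFP+, 408, 404 and 432 in inguinal GFP-, 357, 337 and 338 in epididymal GFP+ and 385, 306 and 290 in epididymal GFP- cells. It was not called between GFP+ and GFP- cells (0.14, 95% interval -0.08 to 0.37, inguinal; 0.08, -0.14 to 0.30, epididymal) and was higher in the inguinal depot in both fractions (0.40 and 0.34, limma adjusted p = 0.00419 and 0.012). The second of these differences was 0.26 (limma adjusted p = 0.0645) without epididymal GFP- replicate 3. Probe set 1451756_at was instead higher in epididymal GFP+ than GFP- cells (0.41, limma adjusted p = 0.0102) and lower in inguinal than epididymal GFP+ cells (-0.36, limma adjusted p = 0.0198). When its 3 probe sets were averaged the GFP+ depot difference was -0.06 (limma adjusted p = 0.652) and opposite in sign to that of the brightest. In GFP- cells 1451756_at was higher in the inguinal depot (0.30, limma adjusted p = 0.0431), as 1419300_at was, while the average of the 3 was 0.08 (limma adjusted p = 0.563). Probe sets 1419300_at and 1451756_at thus disagreed in direction in GFP+ cells. The remaining probe set, 1454037_a_at, was dimmer, with group means of 84.3 to 131. In GFP- cells its depot difference was opposite in sign to theirs but not called (-0.41, limma adjusted p = 0.0788). It was not called in GFP+ cells either (-0.23, limma adjusted p = 0.335).

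**Figure D3:**
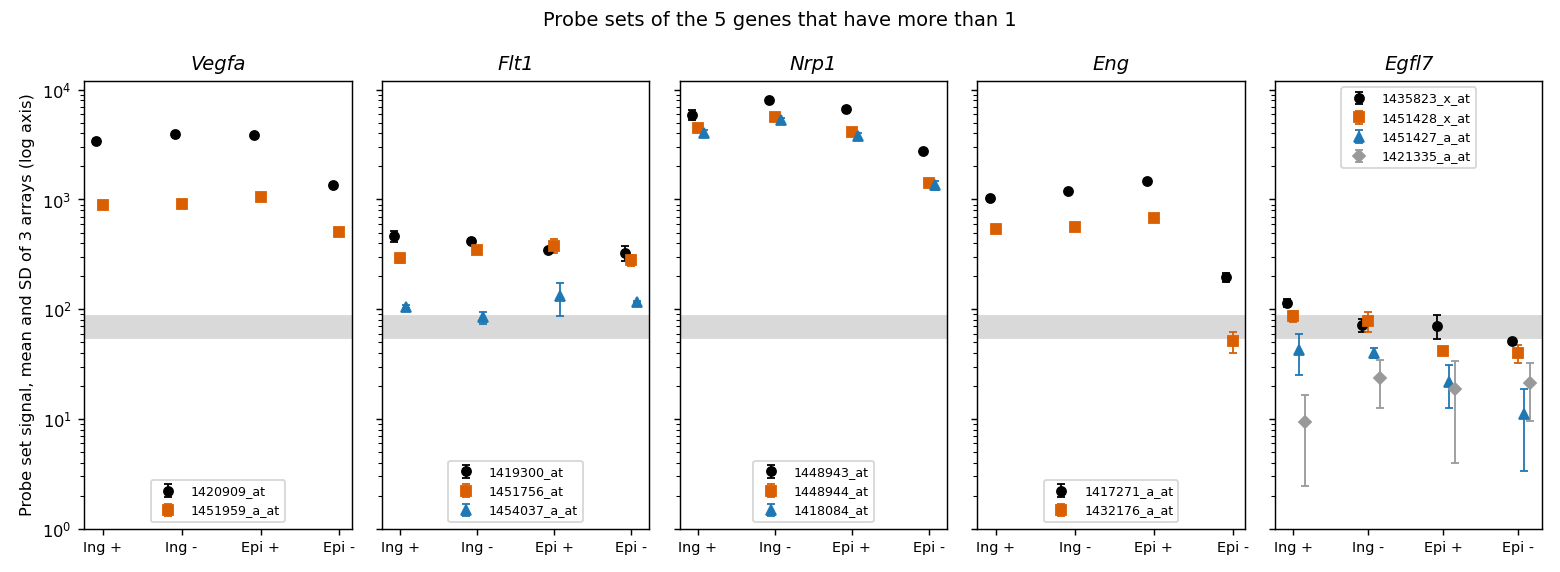
Mean signal and SD over 3 arrays (log axis) of every probe set of the 5 genes that have more than 1, in the 4 groups, with the background limits as a grey band. The 3 probe sets of Nrp1 and the 2 of Eng move alike between GFP+ and GFP- epididymal cells, those of Flt1 differ in the order of the groups, and 2 of the 4 probe sets of Egfl7 lie below the band in every group.

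Nrp1, the co-receptor of VEGF-A and semaphorin 3A, resembled Vegfa. Its signals were 5938, 6473 and 5312 in inguinal GFP+ cells, 8143, 7886 and 8075 in inguinal GFP- cells, 6591, 6989 and 6569 in epididymal GFP+ cells and 2913, 2665 and 2745 in epididymal GFP- cells. Inguinal GFP- arrays were the highest and epididymal GFP- arrays the lowest, without overlap. The GFP contrast was -0.45 (SE 0.05, limma adjusted p = 2.91e-05) in inguinal and 1.27 (SE 0.05, limma adjusted p = 1.32e-11) in epididymal cells. The other 2 probe sets gave -0.32 and -0.39 in inguinal and 1.55 and 1.505 in epididymal cells, all called. They were not called between the depots in GFP+ cells (0.11 and 0.07), where the brightest probe set gave -0.19 (limma adjusted p = 0.00871), and the mean of the 3 gave -0.0040 (limma adjusted p = 0.964).

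Nrp2, the neuropilin that also binds VEGF-C, had signals of 476, 669 and 579 in inguinal GFP+, 563, 571 and 560 in inguinal GFP-, 608, 593 and 497 in epididymal GFP+ and 293, 208 and 252 in epididymal GFP- cells. The first 3 groups overlapped and the last lay below them all. It was higher in epididymal GFP+ than GFP- cells by 1.13 (SE 0.13, limma adjusted p = 1.56e-06). In inguinal cells the contrast was 0.01, with a 95% interval of -0.26 to 0.28.

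Eng was lowest in epididymal GFP- cells, with signals of 201, 177 and 210 there against 1470, 1400.1 and 1522 in epididymal GFP+ cells. In inguinal cells the signals were 986, 1070 and 1038 in GFP+ and 1214, 1154 and 1221 in GFP- cells, so that all 4 groups were separate. The ratio of mean signals in epididymal cells was 7.48. Its second probe set, 1432176_a_at, fell from a mean of 674 ± 31.7 in epididymal GFP+ to 51.2 ± 10.8 in epididymal GFP- cells (SD, n = 3), above background on 0 of the 3 arrays (3.37, limma adjusted p = 5.77e-13). The small inguinal decrease was not shared by that probe set (-0.05, limma adjusted p = 0.857) and was not called when every probe set was fitted (limma adjusted p = 0.0527). It was lost in 15 of 24 alternatives, with an adjusted p of up to 0.309.

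Egfl7, a matrix-bound factor made by endothelial cells, was weakly detected. Its brightest probe set had signals of 115, 105 and 122 in inguinal GFP+, 67.3, 82.4 and 65.2 in inguinal GFP-, 66.9, 55.4 and 90.4 in epididymal GFP+ and 52.3, 48.6 and 53.2 in epididymal GFP- cells. It was above background on all 6 inguinal arrays, on 1 of 3 epididymal GFP+ arrays and on 0 of 3 epididymal GFP- arrays. The inguinal difference of 0.57 was not seen with the mean of its 4 probe sets (0.02, limma adjusted p = 0.967) and was lost in 9 of 23 alternatives. The higher level in inguinal than epididymal GFP+ cells (0.60, limma adjusted p = 0.00884) was shared by probe set 1451428_x_at (0.82, limma adjusted p = 0.00127), but was not called with the mean of the 4 (0.42, limma adjusted p = 0.0732). Both of these probe sets have the ending _x_at, and whether they also detect other transcripts was not tested. Probe sets 1451427_a_at (0.62, limma adjusted p = 0.0772) and 1421335_a_at (-0.38, limma adjusted p = 0.418) were above background in no group and were not called.

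The contrasts of the depots were then compared directly, by testing the inguinal minus the epididymal GFP contrast. Of the 9 genes, Kdr had a positive difference and Vegfa, Nrp1, Nrp2 and Eng a negative one, 5 calls beside 34.8% of all genes (16.1% positive and 18.7% negative). This share was 49.1% with weakly detected genes left out. The values were 3.81 for Kdr, -3.02 for Eng, -1.72 for Nrp1, -1.71 for Vegfa and -1.12 for Nrp2, with limma adjusted p of 0.000106 or less. Kdr, Vegfa, Nrp1 and Eng were called in both depots, beside 9.07% of all genes, and all 4 in opposite directions, beside 4.07% of all genes. Eng dropped out of this count in 15 of 24 alternatives, and Vegfa too when probe sets were averaged. Kdr and Nrp1 were in it under every alternative run. By the calls as reported Vegfa, Nrp1 and Eng were lower in inguinal and higher in epididymal GFP+ cells, beside 2.4% of all genes.

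Between the depots, GFP+ cells differed in 8 of the 9 genes (3 higher in inguinal cells, 5 lower), beside 50.8% of all genes (23.6% higher, 27.2% lower), and GFP- cells in 7 of 9 (5 higher, 2 lower), beside 53.7% (27.4% higher, 26.3% lower). Leaving out weakly detected genes raised the shares called to 67.7% in GFP+ and 71.6% in GFP- cells. Groups did not overlap for 8 members in each fraction, beside 56% and 61.1% of all genes. These comparisons use the same arrays as the GFP contrasts. In GFP+ cells Vegfa was close in both depots (-0.18, limma adjusted p = 0.00152) and Eng was lower in inguinal cells (-0.50, limma adjusted p = 1.06e-05). In GFP- cells Vegfa (1.53), Nrp1 (1.53), Nrp2 (1.13) and Eng (2.52) were all higher in inguinal cells.

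Across the 12 arrays, the genes most like each member by Pearson r among 9067 others were Pdgfrb for Vegfa (0.996), Mgp for Kdr (0.997), Ebf2 for Eng (0.997), Hs6st1 for Nrp1 (0.991) and Galm for Nrp2 (0.98). For the less variable members they were Tgfbr3 for Vegfc (0.957), Btbd2 for Flt1 (0.963), Gadd45gip1 for Egfl7 (0.964) and Zfp820 for Vegfb (0.912). The 12 arrays fall into 4 groups, so these values mostly reflect 4 means. Ebf2 had a mean signal of 1174 in epididymal GFP+ and 18.4 in epididymal GFP- cells.

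Among the other VEGF ligands and receptors, placental growth factor Pgf, a ligand of FLT1, fell in inguinal and rose in epididymal GFP+ cells. The brightest probe set of Vegfa did so too, with a smaller inguinal decrease (-0.20) that its second probe set did not show. The mean signal of Pgf was 254 ± 40.9 in inguinal GFP+, 500 ± 38.6 in inguinal GFP-, 977 ± 58.7 in epididymal GFP+ and 207 ± 7.81 in epididymal GFP- cells (SD, n = 3), with GFP contrasts of -0.94 and 2.16 (limma adjusted p = 7.95e-06 and 4.25e-11). Vegfd, the other lymphatic ligand, rose by 0.94 in inguinal GFP+ cells and was not called in epididymal cells (0.02). It was lower in inguinal cells in both fractions (-1.14 and -2.06). The lymphatic receptor Flt4 was dim and was higher in inguinal GFP+ cells by 0.67 (limma adjusted p = 0.0144), which was not called with the mean of its probe sets (0.32, limma adjusted p = 0.314) or without inguinal GFP- replicate 2 (0.58, limma adjusted p = 0.0717). In epididymal cells its contrast was -0.44, just short of a call (limma adjusted p = 0.0503), and passed in 7 of 24 alternatives.

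Of 32 measured genes of VEGF receptor signalling, 3 rose and 7 fell in inguinal GFP+ cells and 14 rose and 12 fell in epididymal GFP+ cells. Over all genes 5.26% rose and 7.29% fell in inguinal and 21.5% rose and 20.3% fell in epididymal GFP+ cells. Such shares are not like for like, since 29 of the 32 genes but 64.6% of all genes were above background in all 4 groups. The medians of the list were -0.04 and -0.03 against -0.01 and 0.01 over all genes. The inguinal counts were not firm: without inguinal GFP+ replicate 3 there were 1 higher and 4 lower, and omitting replicate 2 or 3 of inguinal GFP- cells left 1 higher. The tyrosine kinase Fyn (2.05) and the sphingosine kinase Sphk1 (1.297) rose in epididymal GFP+ cells. The focal adhesion kinase relative Ptk2b (-1.37) and the adaptor Gab1 (-1.12) fell. In inguinal GFP+ cells Ptk2b fell by 0.52 and Nras by 0.25, and Grb2 (0.17) and Pik3r1 (0.25) rose, but neither Grb2 nor Pik3r1 was called with the mean of its probe sets (limma adjusted p = 0.142 and 0.19).

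Hypoxia regulators and targets, which include known inducers and co-targets of Vegfa, had 16 of 24 genes higher and 3 lower in epididymal GFP+ cells (median 0.33 against 0.01) but 4 higher and 1 lower in inguinal GFP+ cells (median 0.03 against -0.01). These counts stand beside 21.5% of all genes higher and 20.3% lower in epididymal and 5.26% and 7.29% in inguinal cells. Such shares are not like for like, since 21 of the 24 genes but 64.6% of all genes were above background in all 4 groups. With weakly detected genes left out, 58.5% of all genes were called in epididymal and 18.4% in inguinal cells. The inguinal counts ranged from 1 to 6 higher and 0 to 2 lower with single arrays left out. They were 1 higher without inguinal GFP+ replicate 1 or 3 and 2 higher without any 1 of the inguinal GFP- arrays. The count lower was 0 without inguinal GFP+ replicate 1 or inguinal GFP- replicate 1 or 2, and 2 without epididymal GFP- replicate 1. Hk2, the gene lower in the main fit, also lost its call without inguinal GFP+ replicate 3 (-0.097, limma adjusted p = 0.115). In epididymal GFP+ cells the collagen prolyl hydroxylase P4ha2 (2.24) and the hexokinase Hk2 (1.71) rose and Ndrg1 (-1.65) and the carbonic anhydrase Car12 (-0.84) fell. In inguinal GFP+ cells adrenomedullin, Adm, rose (0.86). Smaller inguinal changes of Higd1a (0.14) and Hk2 (-0.14) were lost in 7 and 8 of 24 alternatives, with limma adjusted p of up to 0.0978 and 0.115.

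The list of semaphorins and plexins includes ligands and partner receptors of the neuropilins, but not every gene in it is one, and it also holds Gipc1. It had 3 of 12 genes higher and 7 lower in epididymal GFP+ cells (median -0.40) and 1 higher in inguinal GFP+ cells (median -0.05). Of all genes 21.5% were higher and 20.3% lower in epididymal and 5.26% higher in inguinal GFP+ cells, with medians of 0.01 and -0.01. Above background in all 4 groups were 9 of the 12 genes, against 64.6% of all genes. Sema3a, a NRP1 ligand, rose by 0.48 in inguinal and fell by 1.89 in epididymal GFP+ cells, opposite to Nrp1 in each depot. Sema3f, a NRP2 ligand, fell by 2.55 in epididymal GFP+ cells, where it was above background on 0 of 3 arrays. The plexins Plxnd1 (1.02) and Plxnc1 (0.50) rose there, the latter not with the mean of its probe sets (0.25, limma adjusted p = 0.121).

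Of 21 endoglin signalling partners, 2 rose and 4 fell in inguinal GFP+ cells and 6 rose and 8 fell in epididymal GFP+ cells (medians -0.10 and -0.01). All genes gave 5.26% higher and 7.29% lower in inguinal and 21.5% and 20.3% in epididymal cells (medians -0.01 and 0.01). Above background in all 4 groups were 19 of the 21 partners but 64.6% of all genes, so the shares are not like for like. The inguinal counts became 1 higher without inguinal GFP+ replicate 1 or inguinal GFP- replicate 2, and 2 lower without inguinal GFP+ replicate 1 or inguinal GFP- replicate 1 or 3. In epididymal GFP+ cells the receptors Tgfbr1 (1.31) and Acvr2a (1.44) rose with Eng, while the BMP targets Id1 (-1.81) and Id2 (-1.41) fell. In inguinal GFP+ cells Tgfbr2 (0.40) and the endothelial BMP receptor Acvrl1 (0.47) rose, and the protease that sheds endoglin, Mmp14 (-0.16), and Tgfbr1 (-0.39) fell. Acvrl1 was also higher in epididymal GFP+ cells, with mean signals of 634 against 191 in GFP- cells, and 996 against 712 in inguinal cells. Its rise was larger in the epididymal depot (-1.19 as inguinal minus epididymal contrast). The inguinal Acvrl1 call was lost in 5 of 24 alternatives (limma adjusted p of up to 0.0753). Averaging probe sets gave 0.034 for inguinal Tgfbr1 (limma adjusted p = 0.936), a change of sign.

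Of 29 other angiogenic and angiostatic factors, 9 rose and 3 fell in inguinal GFP+ cells and 9 rose and 12 fell in epididymal GFP+ cells (medians 0.01 and -0.12). Matching shares of all genes were 5.26% and 7.29% in inguinal and 21.5% and 20.3% in epididymal cells (medians -0.01 and 0.01). Above background in all 4 groups were 22 of the 29 factors, against 64.6% of all genes. Thrombospondin 2, Thbs2, rose in both depots (0.53 and 2.73), and Timp3 (-0.49 and -0.83) and Slit2 (-0.61 and -1.12) fell in both. Fgf2 rose in inguinal GFP+ cells (0.58) and the angiogenesis inhibitor Serpinf1 in epididymal GFP+ cells (0.92).

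The label of endothelial receptors was checked against 26 measured endothelial markers, of which 10 were above background in at least 1 group and 1, Nos3, in all 4. Pecam1, Tie1, Cldn5, Vwf, Erg and Icam2 were above background on no array. Cdh5, the endothelial cadherin, had mean signals of 36.4 and 67.7 in inguinal GFP+ and GFP- cells and 166 and 33.4 in epididymal GFP+ and GFP- cells, and rose by 1.88 in epididymal GFP+ cells. It was above background on 0 of 3 arrays of epididymal GFP- cells, the group with the most Kdr signal. Tek was above background in both inguinal groups (95.4 and 83.4), on 1 epididymal GFP+ array and on no epididymal GFP- array. The summed signal of the list was 1243 to 1328 in inguinal GFP+, 1383 to 1463 in inguinal GFP-, 1646 to 1757 in epididymal GFP+ and 1940.2 to 2191 in epididymal GFP- cells. Esam, the adhesion molecule shared by endothelial and other cells, made up the largest part of the last value with a mean of 825 in epididymal GFP- against 124 in epididymal GFP+ cells (-2.59).

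In inguinal cells 2 endothelial markers rose and 2 fell in GFP+ cells, beside 12.6% of all genes called. In epididymal cells 5 rose and 1 fell, 6 of 26 beside 41.9% of all genes. The shares are not like for like, since 10 of the 26 markers but 73.2% of all genes were above background in a group. The counts of calls were not firm. The inguinal increases were 0 without inguinal GFP- replicate 2, and 1 when the array left out was inguinal GFP+ replicate 1 or 3 or inguinal GFP- replicate 1, and the decreases were 4 without inguinal GFP+ replicate 2. The epididymal decreases were 2 without inguinal GFP- replicate 2 or epididymal GFP+ replicate 2, and the epididymal increases were 0 when weakly detected genes were left out. The inguinal decreases were Cd93 (-1.19) and Lmo2, which myeloid cells also express. Lmo2 had a mean signal of 70.4 in inguinal GFP- cells and was above background on no array of the other 3 groups, so its log2 difference of -1.14 is against a level not told from background. The Cd93 call was lost with the mean of its probe sets (-0.47, limma adjusted p = 0.102). Macrophage and leukocyte markers were lower in the same comparison, with 16 of 21 genes lower and 1 higher (8 lower when weakly detected genes were left out), and their summed signal was 14281 to 16689 in inguinal GFP- against 6366 to 6906 in inguinal GFP+ cells. Their part in the small inguinal differences of Vegfa, Nrp1 and Eng was not tested.

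**Figure D4:**
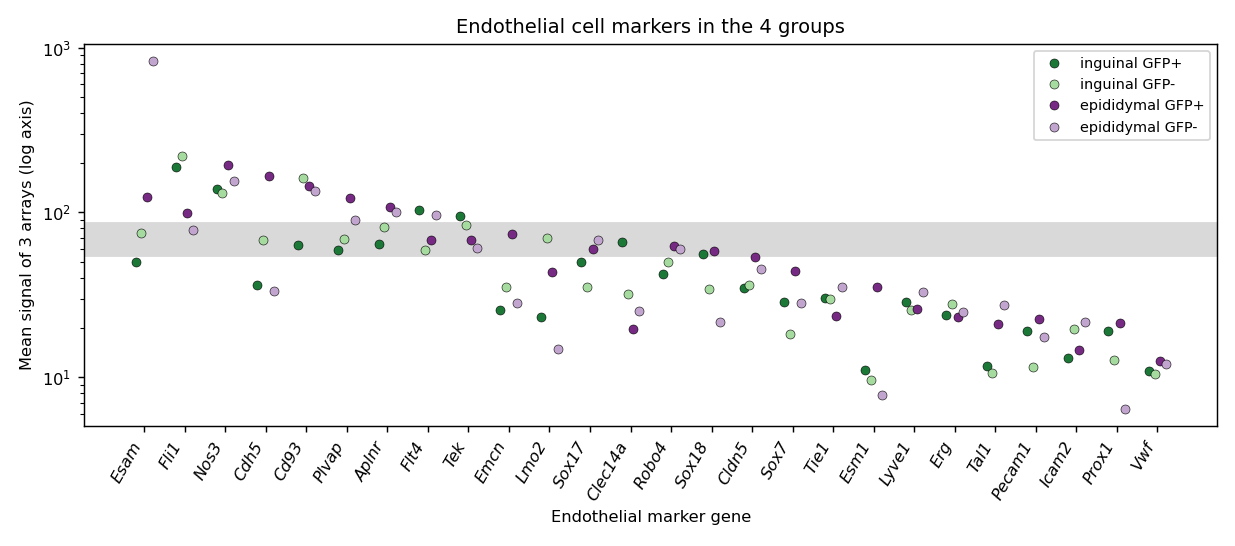
Mean signal over 3 arrays (log axis) of the 26 measured endothelial markers in the 4 groups, ordered by brightness, with the background limits of 54.6 to 86.1 as a grey band. Most markers lie in or below the band, and Esam in epididymal GFP- cells, at 825, is the highest point.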

How the data were processed

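RNA of 12 samples was measured on Affymetrix arrays. The authors deposited linear intensity per probe set; the signal algorithm, background correction and scaling of the authors are not given in the sources used here, and per the labels RNA was extracted with Trizol and hybridised as biotin-labelled cRNA. Of 22626 probe sets, 20380 had 1 gene symbol in the platform annotation, 691 several and 1555 none, and only the first kind was named. Symbols were updated with the RefSeq gene table of GRCm38.p6. Values were transformed to log2(intensity + 16), with no further normalization, and each gene was represented by its probe set of highest mean. Differences were fitted over all 12 arrays with limma 3.58.1 in R 4.3.3 (lmFit, eBayes with a trend), adjusted by Benjamini-Hochberg over 12393 genes; other probe sets were fitted over all 22626. The number of arrays limits the precision. Scripts were tested on simulated data.

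The members and the 11 gene lists were chosen with earlier results of these data known. The rule for named genes took the 9 members, Zfp423, up to 2 called genes per list, comparison and direction with the smallest adjusted p among those above background in the higher group, the 3 genes most correlated with each member, and the defining endothelial markers. For length the text names, of the list genes, all that the rule gave in the GFP contrasts for the VEGF, hypoxia, semaphorin, endoglin, angiogenic and endothelial lists, and 1 of the 3 correlated genes per member. That restriction was set after the values were seen. It replaced a shorter choice by hand that had left out calls that change with the processing. The fibroblast list had 6 genes higher and 2 lower of 14 in inguinal GFP+ cells and 5 and 7 in epididymal GFP+ cells; of 20 mural markers 3 were higher and 11 lower, and 10 and 3. Shares of all genes were 5.26% higher and 7.29% lower in inguinal and 21.5% and 20.3% in epididymal GFP+ cells. Above background in all 4 groups were 13 of the 14 fibroblast and 15 of the 20 mural genes, against 64.6% of all genes. Without single inguinal arrays the fibroblast decreases were 1 (GFP+ replicate 1 or 3, GFP- replicate 3) and the mural increases 1 (GFP+ replicate 1 or 2, GFP- replicate 2 or 3).

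Alternatives were quantile normalization, median centring, pseudocounts, a filter on weakly detected genes, other limma settings, other probe set rules, stricter thresholds, the replicate number as a block and each array left out in turn.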

Additional observations from a re-analysis of the deposited data

Results flagged for a closer look

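The following genes had GFP contrasts that differed between the depots, by the limma test of the inguinal minus the epididymal contrast (adjusted p under 0.05, called for 34.8% of all genes). Among the members they were Vegfa (-1.71), Kdr (3.81), Nrp1 (-1.72), Nrp2 (-1.12) and Eng (-3.02). Other probe sets of members gave -1.04 for Vegfa 1451959_a_at, -0.66 for Flt1 1451756_at, -1.90 for Nrp1 1418084_at, -1.87 for Nrp1 1448944_at and -3.42 for Eng 1432176_a_at.

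Of 37 list genes looked at, including Zfp423 (-1.56), 35 were called. Apart from Zfp423, these genes were chosen because they were called in a GFP contrast of the same arrays. Their count is therefore not comparable with the share of all genes. In the VEGF lists the values were Pgf (-3.10), Vegfd (0.92), Flt4 (1.11), Pik3r1 (-0.72), Ptk2b (0.85), Fyn (-2.31), Sphk1 (-1.22) and Gab1 (1.09). Among hypoxia genes they were Adm (0.52), Higd1a (-0.62), Hk2 (-1.85), P4ha2 (-2.22), Ndrg1 (1.59) and Car12 (0.80). Semaphorins and plexins gave Sema3a (2.37), Sema3f (2.06), Plxnd1 (-1.16) and Plxnc1 (-0.64). Endoglin partners gave Tgfbr2 (0.61), Tgfbr1 (-1.69), Acvrl1 (-1.19), Acvr2a (-1.57), Mmp14 (0.15), Id1 (1.85) and Id2 (1.21). Angiogenic factors gave Thbs2 (-2.20), Fgf2 (1.2), Timp3 (0.33), Slit2 (0.51) and Serpinf1 (-0.90), and endothelial markers Cd93 (-1.27), Lmo2 (-2.08), Cdh5 (-2.55) and Esam (2.11). Lmo2 was above background only in inguinal GFP- cells, and Cdh5 only in epididymal GFP+ cells on all 3 arrays, so their values are against levels not told from background. Car12, Cd93, Esam, Flt4, Sema3f and Zfp423 also had group means in or below the band of background limits, 54.6 to 86.1, in some groups. Calls lost when probe sets were averaged per gene were those of Cd93, Flt4, Id2, Pik3r1, Plxnc1 and Tgfbr2. Those of Adm and Mmp14 were lost without the variance trend, and those of Adm and Car12 at an adjusted p of 0.01. The Adm call was also lost without inguinal GFP+ replicate 1 (limma adjusted p = 0.055) or epididymal GFP+ replicate 2 (limma adjusted p = 0.0507).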

How the results depend on the processing

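Of 1066 member values under 24 alternatives, 1001 kept their direction and side of the threshold, 37 lost their call, 5 gained one and 23 changed sign. The epididymal calls of Vegfa, Kdr, Nrp1, Nrp2 and Eng held under every alternative run, as did the differences of their GFP contrasts between depots. The count of members called in both depots in opposite directions, 4, was 4 in 9, 3 in 14 and 2 in 1 of the 24 alternatives. The number of members called in inguinal cells, 5, became 3 with a pseudocount of 1, 2 when probe sets were averaged per gene and 3 at an adjusted p of 0.01, and was 3 to 5 with arrays left out; between the depots in GFP+ cells it went from 8 to 5 with the mean of probe sets. Sign changes with the mean of probe sets were Egfl7 (-0.16) and Flt1 (-0.14) in the depot difference of the GFP contrast, Flt1 between depots in GFP+ cells (-0.061), Tgfbr1 in inguinal (0.034) and Vegfd in epididymal cells (-0.023). With array weights Nrp2 was -0.045 in inguinal cells and -0.035 between depots in GFP+ cells, and Vegfc 0.030 in inguinal cells. Vegfc there was 0.0054 after quantile normalization and 0.0083 after median centring, which gave -0.020 for epididymal Vegfd. With arrays left out, the depot difference of the GFP contrast was -0.051 to 0.14 for Flt1, -0.082 to 0.18 for Vegfb and -0.14 to 0.045 for Vegfc. The inguinal contrast was -0.10 to 0.14 for Nrp2 and -0.085 to 0.098 for Vegfc, the epididymal contrast -0.025 to 0.10 for Vegfc and -0.069 to 0.062 for Vegfd, and Nrp2 between depots in GFP+ cells -0.10 to 0.14. None of these was called in the main test except Flt1 between depots and Tgfbr1, and the cause was not tested. Of 2618 counts of list genes called under an alternative, 127 moved by over 1.5 times.

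Deviations of arrays of the same number correlated at -0.06 to 0.04, so no pairing by replicate number was seen. The labels do not say whether arrays of the same number shared mice or a culture, and these correlations cannot exclude it. With the replicate number as a block, inguinal Egfl7 stayed at 0.57 (limma adjusted p = 0.0567) and Vegfb in GFP+ cells at 0.36 (limma adjusted p = 0.0584), and 4 members were called in inguinal cells; 3 of 12 arrays were matched best by an array of their own number. The fit restricted to the groups compared does not apply to the depot difference.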
